A study of Drosophila melanogaster with 2 samples.

Results

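Replacement histones are made throughout the cell cycle and are put into chromatin outside DNA replication, whereas the bulk histones of Drosophila come from a repeated gene cluster that is used in S phase. Histone chaperones carry the free histones and hand them to DNA: Hira and the DAXX-ATRX pair place H3.3 at sites where nucleosomes are lost, and Asf1 passes H3-H4 dimers to other chaperones. The embryo relies on this machinery from fertilisation onward, when the protamines of the sperm are exchanged for maternal H3.3 nucleosomes, and it starts with its own linker histone, BigH1. The genes described here are 9 of the 13945 protein-coding genes annotated on the 6 chromosome arms used here. They were listed by function, as 5 replacement histone genes (His2Av, His3.3A, His3.3B, His4r, BigH1) and 4 chaperone genes (Daxx, Hira, asf1, XNP), and all 9 were found in the annotation by symbol.

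Binding of the zinc finger transcription factor Sry-delta was measured by chromatin immunoprecipitation and sequencing (ChIP-seq) in whole embryos of pooled sex, 0 to 24 hours old. There was 1 group of 2 libraries, labelled biological replicates 3 and 4, both from a transgenic line with GFP at the C-terminus of Sry-delta and both precipitated with an antibody against GFP. Each library pools all embryonic stages and all cell types, and the labels give both the same fly line. No untagged or input library was analysed here, and read depth is unknown. Peak height is the authors' signal value, which has 1 scale per list: 30000 peaks for each library, 30000 for both pooled, and an optimal set of 6318 peaks whose signals are those of the pooled list. A gene is called bound when a peak summit lies within 500 bp of any of its annotated start sites.

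All 9 genes were bound in the optimal set, beside 39.0% of all protein-coding genes. The heights covered a range of 52.2-fold, from Daxx, a chaperone of H3.3 (signal 5454, rank 9 of 6318), down to BigH1, the linker histone of germ cells and the early embryo (signal 104, rank 6105). Of the 9, 7 stood above 386, the median signal of the 5445 bound protein-coding genes, and the median over the 9 was 1220. In each full list of 30000 peaks all 9 again had a summit in the window, but these lists run into background and held 58.1% (pooled), 58.4% (replicate 3) and 58.3% (replicate 4) of protein-coding genes. Among the 6318 highest peaks of replicate 3 all 9 were found, beside 38.5% of protein-coding genes. Among those of replicate 4 there were 8, beside 38.6%, and BigH1 was the one that was missing. With 9 genes listed by function and results of these data known, no test was made of the count.

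The sequences under the peaks are shown first, since the motifs in them differ from gene to gene. The BigH1 stretch does not hold the summit, which lies in the coding sequence of its neighbour. Each is read from the Release 6 genome (dm6), runs 5′ to 3′ on the strand of the named gene, leaves out the transcribed parts of protein-coding genes, and has matches to the searched motifs in capitals. For His2Av and XNP the whole gap between the facing start sites is given, and for the others the part within 100 bp of the highest summit. Daxx was chosen for its height, His3.3B for its match to the Sry-delta consensus, and the others for ATCGATA, the core of the DNA replication-related element (DRE), which the factors DREF and BEAF-32 bind.
Daxx (chr2L:6480760-6480928, plus strand): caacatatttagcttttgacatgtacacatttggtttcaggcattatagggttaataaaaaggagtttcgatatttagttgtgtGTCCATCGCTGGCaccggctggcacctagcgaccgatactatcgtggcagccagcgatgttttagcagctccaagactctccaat
His2Av (chr3R:26866808-26866928, plus strand): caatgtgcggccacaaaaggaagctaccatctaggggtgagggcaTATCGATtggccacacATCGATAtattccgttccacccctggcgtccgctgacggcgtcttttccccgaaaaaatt
asf1 (chr3L:19618522-19618668, plus strand): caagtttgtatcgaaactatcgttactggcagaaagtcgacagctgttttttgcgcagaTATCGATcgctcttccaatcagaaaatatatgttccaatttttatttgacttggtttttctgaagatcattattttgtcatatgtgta
His3.3B (chrX:9156670-9156837, minus strand): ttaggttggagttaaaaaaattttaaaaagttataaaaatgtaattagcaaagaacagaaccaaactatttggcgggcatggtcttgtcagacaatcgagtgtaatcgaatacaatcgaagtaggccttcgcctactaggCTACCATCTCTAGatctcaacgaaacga
Hira (chrX:7721970-7722118, plus strand): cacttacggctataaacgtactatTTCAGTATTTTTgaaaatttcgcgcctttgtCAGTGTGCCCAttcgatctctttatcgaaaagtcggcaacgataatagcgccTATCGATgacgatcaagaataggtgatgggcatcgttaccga
XNP (chr3R:25482835-25483097, minus strand): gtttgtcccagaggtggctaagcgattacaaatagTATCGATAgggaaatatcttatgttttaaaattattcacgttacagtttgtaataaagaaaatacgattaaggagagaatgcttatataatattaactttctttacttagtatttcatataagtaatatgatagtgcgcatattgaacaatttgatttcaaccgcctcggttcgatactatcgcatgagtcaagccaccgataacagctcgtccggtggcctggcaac
BigH1 (chr3R:14663198-14663245, plus strand): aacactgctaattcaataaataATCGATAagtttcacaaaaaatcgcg
In these lines TATCGAT is ATCGATA read from the other strand. The capitals of Daxx mark Motif 7, and those of His3.3B a match to the Sry-delta consensus with 2 mismatches. The further capitals of Hira mark Motif 6 and a match to Motif 1 with 1 mismatch.

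Among the replacement histone genes, His2Av had the highest peak. His2Av encodes the single H2A variant of the fly, which does the work of both H2A.Z and H2A.X of other animals. The peak (dm6 3R, 26866430 to 26867299, 870 bp wide) had a signal of 1400 in replicate 3 (rank 88) and 1684 in replicate 4 (rank 94), and 3071 in the optimal set (rank 92). The summit stood at the same base in all 3 lists, 88 bp upstream of the His2Av start (gene FBgn0001197, 26866929 to 26869220). It was nearer, at 34 bp, to the start of ball on the opposite strand. ball encodes NHK-1, a kinase that phosphorylates histone H2A, so the gap of the facing starts lies between a gene for an H2A variant and a gene for an H2A kinase. The signal cannot be assigned to one of these genes.

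The H3.3 genes, His3.3A and His3.3B, encode the same protein, the H3 variant that is put into chromatin at any time of the cycle. Their peaks differed in height. His3.3B (FBgn0004828, X, 9152523 to 9156669) had signals of 559 in replicate 3 and 672 in replicate 4, with ranks 639 and 692. His3.3A (FBgn0014857, 2L, 5055058 to 5056149) had signals of 171 and 185, with ranks 2055 and 2604. The signal of His3.3B was thus 3.27-fold that of His3.3A in replicate 3 and 3.64-fold in replicate 4, and both libraries gave His3.3B the higher signal. The sites differed in layout as well. The His3.3B summit lay 68 bp upstream of the most distal of its 3 start sites, and no other gene had a start within 500 bp, although the 3′ end of Ost48 lies in the same gap. The His3.3A summit lay in its own 5′ untranslated region, downstream of its first start and 15 bp upstream of the second, and 103 bp from the start of CG14036 on the opposite strand. The peak of His3.3A was also narrow, at 303 bp against 667 bp for His3.3B and a median of 484 bp for the optimal set.

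His3.3B had further weak summits near its internal start sites that did not enter the optimal set. In the pooled list they had signals of 69.7 (rank 8278) and 45.8 (rank 11732), at 226 and 173 bp from an internal start. Replicate 3 had summits of 23.2 and 16.1 there, and replicate 4 had one of 50.2. The peak at the distal start exceeded each of them in its own list.

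His4r, which encodes histone H4 outside the repeated cluster, had the second highest histone gene peak. Signals were 851 in replicate 3 and 1077 in replicate 4 (ranks 320 and 305), and 1904 in the optimal set (3R, 14625377 to 14626034). The summit stood 48 bp upstream of the nearest His4r start (FBgn0013981) and 4 bp from the start of put, which encodes a type II receptor of the BMP and activin pathways. The facing starts are 52 bp apart, the second smallest gap between coding starts among the 9 genes after the 42 bp of His3.3A and CG14036. No other optimal summit lay within 10 kb of the His4r starts.

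BigH1 had the lowest peak of the 9 genes and the one that differed most between the libraries. The peak (3R, 14662903 to 14663386) had a signal of 62.1 in replicate 3 (rank 4815) and 40.6 in replicate 4 (rank 8905), and in the optimal set only 213 of the 6318 peaks ranked after it. The summit lay 305 bp upstream of the BigH1 start (FBgn0038252), inside the coding sequence of Rad17, a gene of the DNA damage checkpoint on the opposite strand, and 52 bp from the Rad17 start. The log2 ratio of replicate 4 over replicate 3 was −0.61, and only 0.731% of optimal peaks had a lower one. Hira, at −0.03, was the other gene of the 9 with a ratio below 0. The summit moved by 61 bp between the optimal set and replicate 3, against at most 18 bp for the other 8 genes. Its width of 484 bp is the most frequent one of the pooled list, shared by 24335 of 30000 peaks there and by 19.2% of optimal peaks. BigH1 was no longer counted as bound with a window of 250 bp (34.5% of protein-coding genes bound) or with the 3159 highest optimal peaks (26.5%). The other 8 genes were counted in each of these settings.

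**Figure D1:**
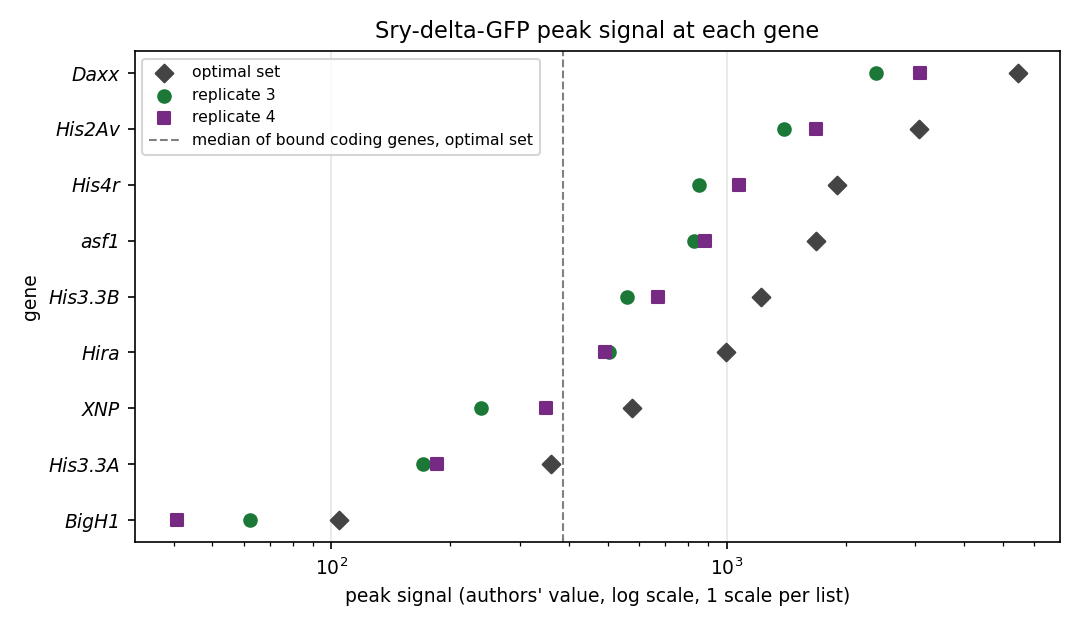
Peak signal (authors' value, log scale) at each of the 9 genes in replicate 3, replicate 4 and the optimal set, each list on its own scale. The order of the highest summits from Daxx to BigH1 is the same in both libraries. The dashed line is the median of bound protein-coding genes in the optimal set, 386.

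Among the chaperone genes, Daxx carried one of the highest peaks of the genome. In mammals DAXX binds H3.3-H4 and works with the remodeller ATRX. The Daxx peak (FBgn0031820; peak 2L, 6480286 to 6481731) had signals of 2395 in replicate 3 and 3080 in replicate 4, at ranks 10 and 8, and was 1446 bp wide. It exceeded the His2Av peak 1.71-fold in replicate 3 and 1.83-fold in replicate 4. The summit stood 69 bp upstream of the Daxx start and 285 bp from the start of Sec61alpha, which encodes the channel of the endoplasmic reticulum translocon. An antisense non-coding gene, lncRNA:CR45463, starts 1 bp from the Daxx start and covers the summit. The region held a single summit, so no separate signal for Sec61alpha could be read.

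XNP, the fly counterpart of ATRX, had a much lower peak than Daxx. Its signals were 239 in replicate 3 and 349 in replicate 4 (ranks 1560 and 1424), and 578 in the optimal set (FBgn0039338; peak 3R, 25482624 to 25483202). The Daxx signal was 10.04-fold that of XNP in replicate 3 and 8.84-fold in replicate 4. The XNP gap is 264 bp from start to start and faces CG5116 and CG42488, which share a start. The higher summit was on the XNP side, 43 bp from its start. A lower summit of 198 (rank 3715) lay 200 bp away, next to the start of the facing genes.

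The chaperones Asf1 and Hira bind H3-H4, and Hira leads the complex that deposits H3.3 on the paternal genome after fertilisation. The asf1 peak (FBgn0029094; 3L, 19618137 to 19619027) had signals of 826 and 883 in replicates 3 and 4, with ranks 346 and 459. Its highest summit was 326 bp from the asf1 start and only 47 bp from the facing start of l(3)76BDm. In the optimal set this highest summit had a signal of 1688 (rank 399). A second summit, with a lower signal of 913 there (rank 958), stood 126 bp upstream of asf1. The Hira peak (FBgn0022786; X, 7721816 to 7722365) had signals of 504 in replicate 3 and 494 in replicate 4, with ranks 728 and 1032. Its summit stood 49 bp upstream of the Hira start, and no other gene had a start within 500 bp. The Daxx signal was 4.75-fold that of Hira in replicate 3 and 6.24-fold in replicate 4.

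The second summits at asf1, XNP and Hira lay 200, 200 and 199 bp to the right of the highest one in genome coordinates. Such an offset was common in the optimal set: of 837 secondary summits, 93.5% lay to the right of the highest summit of their region, at a median distance of 205 bp. Hira had a lower summit of 119 (rank 5550) within its gene, which the list of replicate 4 did not hold. Whether these summits mark separate binding sites was not tested.

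Both libraries put the 9 genes in the same order: Daxx, His2Av, His4r, asf1, His3.3B, Hira, XNP, His3.3A, BigH1. Of the optimal peaks, 6296 were overlapped by a peak in both libraries, and each took the highest overlapping signal of each library. Summits of the same region can therefore repeat the same values, and the spread counts summits, not separate regions. Across the 6296, replicate 4 exceeded replicate 3 by a median of 0.48 on the log2 scale, with a scaled median absolute deviation of 0.45. A gap between neighbours in the order was taken as larger than the spread only where it exceeded 0.45 on the log2 scale in both libraries. By this measure Daxx stood above His2Av (gaps of 0.77 and 0.87), His2Av above His4r (0.72 and 0.64), Hira above XNP (1.08 and 0.50), XNP above His3.3A (0.48 and 0.92) and His3.3A above BigH1 (1.46 and 2.18). His4r and asf1 did not differ beyond the spread (0.04 and 0.29), nor did asf1 and His3.3B (0.56 and 0.39) or His3.3B and Hira (0.15 and 0.44). The standard deviation of the ratio was larger, at 0.53, and by that measure neither Hira and XNP nor XNP and His3.3A were separated. Of the 9 ratios, 8 lay below the median of all optimal peaks. The median ratio was itself 0.64 for the 1564 of these peaks with the lowest signal and 0.35 for the 1580 with the highest, and the latter held 7 of the 9 genes. Signal height thus moved with the ratio, and its part in the low ratios of the 9 genes was not tested.

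**Figure D2:**
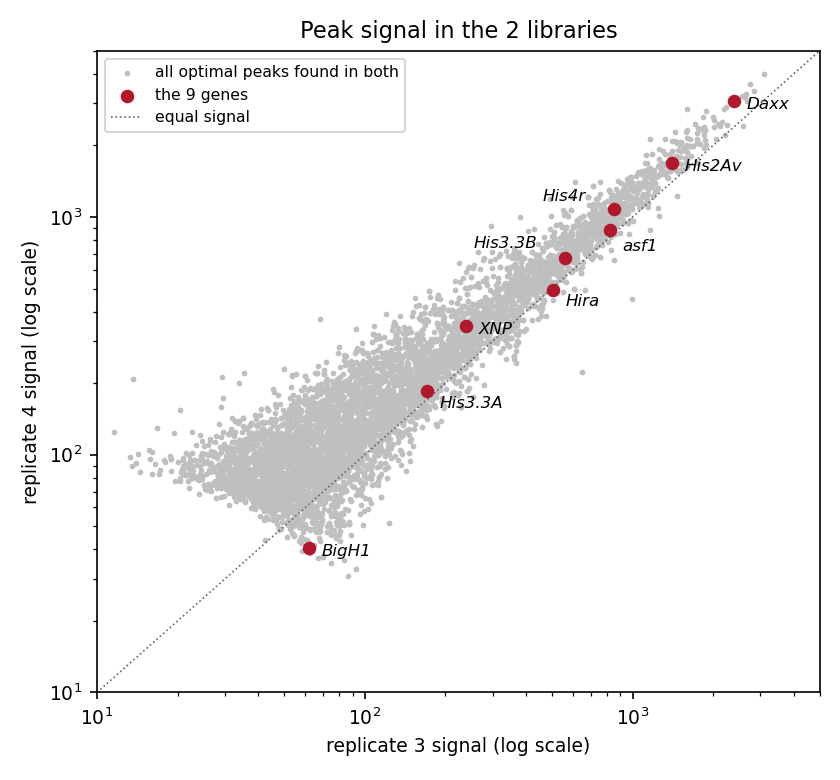
Signal in replicate 3 (x axis) and replicate 4 (y axis), both on log scales. Grey points are all optimal peaks overlapped by a peak in both libraries, with the highest overlapping signal, and red points are the 9 genes. BigH1 lies below the line of equal signal at the lower edge of the cloud (62.1 and 40.6), and Daxx lies near its upper end (2395 and 3080).

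A peak shared with another coding gene was common among these genes, as it was among bound protein-coding genes in general. For 7 of the 9, the highest summit was also within 500 bp of the start of another protein-coding gene, and every such gene was on the opposite strand. Over all bound protein-coding genes the share with a summit shared in this way, on either strand, was 58.7%. At His2Av, His4r, BigH1 and asf1 the summit was nearer to the neighbour's start than to the listed gene's own. Hira and His3.3B had no other start in the window. All 9 highest summits were upstream of the nearest start of the listed gene, as were 88.1% of those of bound protein-coding genes. The median distance to the gene's own start was 68 bp for the 9 genes and 66 bp for bound protein-coding genes.

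**Figure D3:**
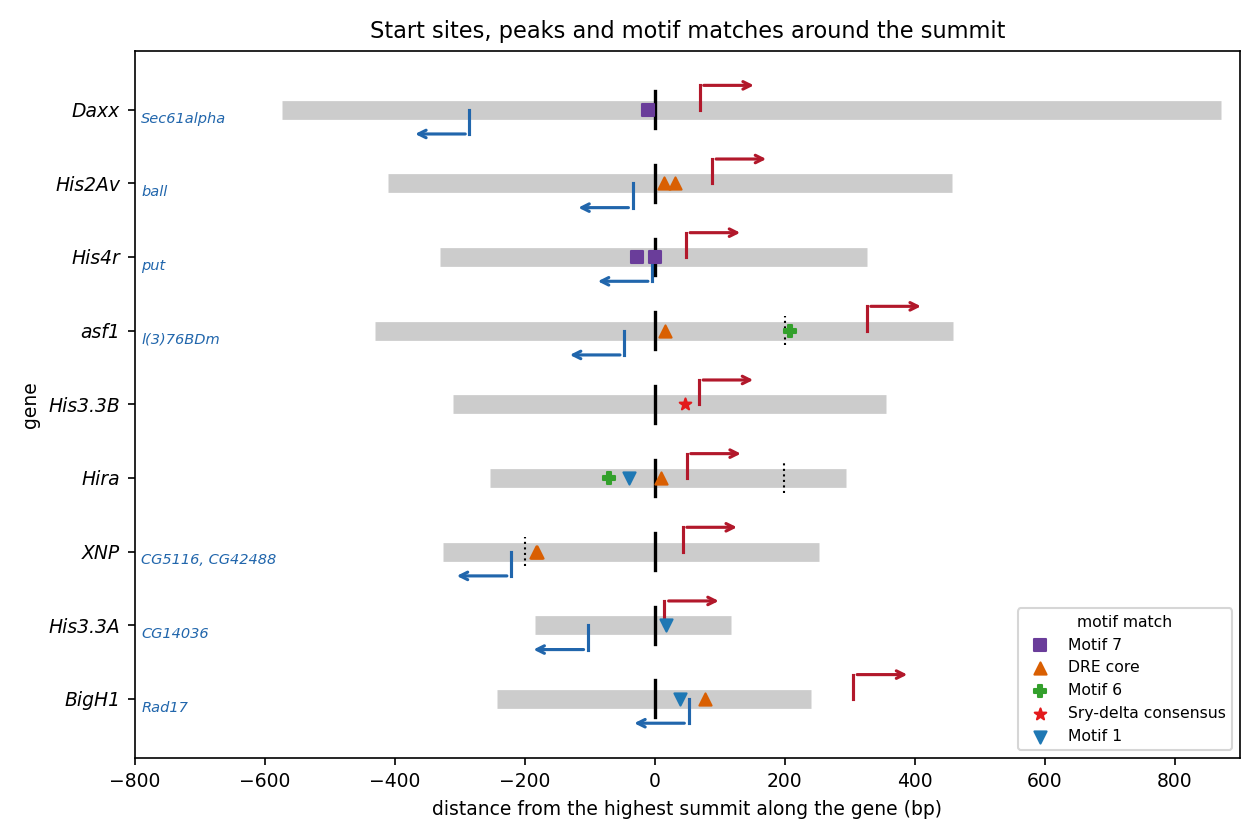
Peaks (grey bars), highest summits (black lines), lower summits (dotted lines), the nearest start of the listed gene (red arrows) and facing protein-coding starts (blue arrows, named at left), by distance from the highest summit along the listed gene in bp. Symbols mark motif matches within 100 bp of a summit; the summits of asf1, His4r, His2Av and BigH1 lie nearer to the blue start than to the red one.

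No single motif was present under all of the peaks. Matches were sought on either strand within 100 bp of the highest summit, a window of 201 bp. The full DRE, TATCGATA, had no match at the 9 highest summits and was found under 15.0% of all 6318 optimal summits. Its core ATCGATA, which every full DRE also contains, was found at 4 of the 9, namely His2Av, asf1, Hira and BigH1. It was found under 27.8% of all optimal summits, in 2.79% of windows of the same length centred 500 bp to either side, and in 15.1% of such windows at the most upstream starts of protein-coding genes. His2Av held it on opposite strands, centred 15 and 31 bp from the summit. In Hira and asf1 it was centred 10 and 16 bp from the summit, and in BigH1 78 bp. The XNP gap had a full DRE, but it lay 19 bp from the lower summit on the side of CG5116 and outside the window of the higher one.

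Motif 7, a core promoter element of broadly used fly genes, was found without mismatch at Daxx (GTCCATCGCTGGC, centred 10 bp from the summit) and at His4r (centred 28 bp away and at the summit itself). It was under 13.5% of all optimal summits, in 2.11% of flanking windows and in 7.58% of windows at coding starts. Motif 1, the element bound by M1BP, was found with at most 1 mismatch at His3.3A (GGGTCACACTG, 2L, 5055131 to 5055141, at its second start), Hira and BigH1, beside 13.9% of all optimal summits, 1.16% of flanking windows and 10.6% of windows at coding starts. Motif 6, with at most 1 mismatch, was found at Hira, beside 10.9% of optimal summits, 4.24% of flanks and 9.61% of coding starts.

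The in vitro binding site of Sry-delta had a match at 1 of the 9 genes. With at most 2 mismatches to the 13-base consensus, only His3.3B had a match at its highest summit (CTAGAGATGGTAG on the plus strand, X, 9156685 to 9156697), 46 bp from the summit and 22 bp upstream of the start. The shares were 6.70% of all optimal summits, 1.61% of flanking windows and 4.04% of windows at coding starts. Daxx, whose peak was the highest of the 9, had none at this setting. At least 1 of the 6 motifs was present at the highest summit of 8 genes, all but XNP, beside 52.0% of all optimal summits. For this combined count no share was computed over flanking windows or windows at coding starts. A match describes the letters in the window and does not show that a factor was bound there.

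All 12 further histone chaperone genes had an optimal summit, beside 39.0% of all protein-coding genes. With the 3159 highest optimal peaks 9 of the 12 were counted, beside 26.5%. For 10 of the 12 another gene had a start within 500 bp of the summit, so that the signal is not theirs alone. The highest were Caf1-55 (signal 2318, rank 196) and the gene of the largest CAF-1 subunit (2150, rank 241), parts of the complex that deposits new H3-H4 behind the replication fork, followed by Set (1470) and Nasp (834). The gene of the remaining CAF-1 subunit had 295 (rank 2655), below the median of bound protein-coding genes. Nlp and Nph, nucleoplasmin family genes, shared a summit, so the 12 genes stood on 11 peaks. yem, the partner of Hira in the H3.3 complex, had a lower signal of 361 (rank 2200). The FACT subunit genes dre4 (323) and Ssrp (146) and the elongation factor gene Spt6 (157) were lower still. The median over the 12 genes was 547, beside 386 for bound protein-coding genes. Both medians count a shared peak for each of its genes. Counted per peak, the middle of the 11 values was the 361 of yem. A per-peak median of bound protein-coding genes was not computed. The 12 genes are therefore not shown to stand above bound protein-coding genes.

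The Domino and Tip60 complex exchanges H2Av in chromatin, and 14 of its 15 listed genes were bound, beside 39.0% of all protein-coding genes. The median signal of the 14 bound genes was 356, below the 386 of bound protein-coding genes. MrgBP (3089, rank 89), Bap55 (3007, rank 101), Gas41 (1942) and Brd8 (1858) had the highest signals. The first of these was close to His2Av itself (3071, rank 92). Another gene shared the summit of 10 of the 14, these 4 included (Ggamma1, Lhr, SA1 and Cisd2, in that order). Among the catalytic subunits, dom had 327 (rank 2420) and Tip60 had 387 (rank 2059). DMAP1 was not bound. It had no summit in the replicate 3 list and one of 34.9 in replicate 4 (rank 10044). With the 3159 highest optimal peaks 9 of the 15 were counted, beside 26.5% of protein-coding genes.

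No peak was listed at the 111 replication-dependent histone genes, which make up the repeated cluster. No summit of any of the 4 lists fell in the cluster (2L, 21416953 to 21541681), although a stretch of its length held 27.9 summits on average in each full list and 5.89 in the optimal set. The copies of the cluster are near-identical, and how reads there were placed is not given in the sources used here, so absence of a peak cannot be told apart from absence of usable reads. The genes for the histone locus body and for histone mRNA processing were bound in 6 of 6 cases, beside 39.0% of all protein-coding genes. Each of the 6 was bound at a summit shared with another gene. Slbp, which binds the stem loop of histone mRNA, had 1030 (rank 803), mute had 841, mxc, the scaffold of the histone locus body, had 805, and Lsm10 had 460.

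Genes for the chromatin of sperm and centromere were bound in 3 of 7 cases, a share of 42.9% beside the 39.0% of all protein-coding genes. cid, the centromeric H3 variant, had a signal of 599 (rank 1424). dhd, a thioredoxin needed to remove protamines, had 337, and Prtl99C, a sperm chromatin protein, had 266. All 3 summits were shared with other genes (cbc, TrxT and Atg16). The protamine genes ProtA and ProtB had no summit in either library's list, and Mst77F and cal1 had none in the optimal set. Over these lists the counts are descriptions beside the background share, and no test was made of them.

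**Figure D4:**
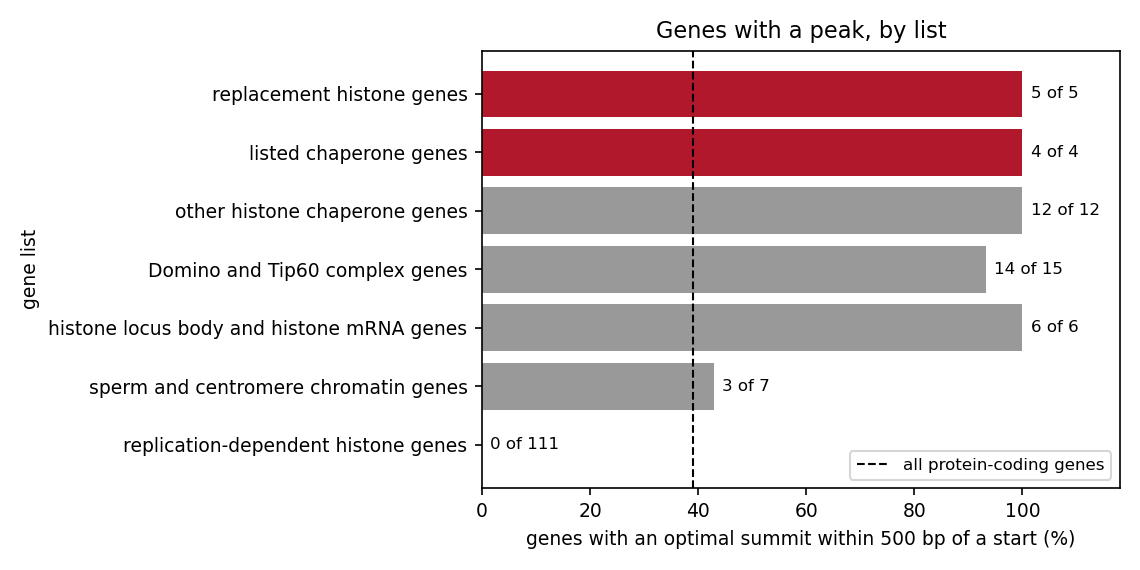
Percent of genes of each list with an optimal summit within 500 bp of a start, with the number bound and the number annotated. The dashed line is the share of all protein-coding genes, 39.0%; the red bars are the 5 replacement histone and 4 chaperone genes, all bound, and the bulk histone genes are at 0 of 111, where it is not known whether reads could be placed.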

How the data were processed

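Whole-embryo ChIP-seq of GFP-tagged Sry-delta gave 1 group of 2 libraries, replicates 3 and 4, with chromatin sheared to 200 to 800 bp, per the labels. The antibody field of the labels gives the tagged protein, and the description gives anti-GFP, which is followed here. The deposited README files list each library's peaks as derived from its alignment and a control, and those of the pooled list from both alignments and a control. The optimal set is listed as a selection from them by irreproducible discovery rate (IDR). No source used here names the caller, aligner or threshold. The deposited signal value ranked the peaks. The deposited −log10 q-value did not vary over the 6318 optimal peaks and gave no rank. Lists in build dm3 were not used.

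Summits of the dm6 lists were set against Ensembl release 115 starts and the Release 6 sequence, with Python 3.11.15, pandas 2.3.3 and NumPy 2.4.6. Replicate peaks were matched by an overlap of at least 1 bp, and the highest overlapping signal was taken. Window counts and the motif search were tested on simulated data. For 3 genes the listed symbol was brought up to date. Named genes were all members, every gene sharing a member's summit, up to 4 genes of each further list with the highest signal, and its unbound ones; yem, Nlp, Nph, dre4, Ssrp, Spt6, the remaining CAF-1 subunit gene, dom, Tip60 and the genes sharing the summits of further lists are outside this rule and were chosen after their values were seen. The members and lists were chosen with earlier results of these data known. Alternatives covered the window, the start sites, the peak set, each library, summits per region, the overlap and the motif settings.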

Additional observations from a re-analysis of the deposited data

How the results depend on the processing

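The count of 9 bound genes was 8 with a window of 250 bp (34.5% of protein-coding genes bound), with the 3159 highest optimal peaks (26.5%) and without replicate 3 (38.6%), and BigH1 was the gene lost each time. It stayed 9 with a window of 1000 bp (42.0%), with the most upstream start only (37.4%), with any base of the peak (40.6%), with 1 summit per region (38.7%) and without replicate 4 (38.5%). The settings without 1 library used the 6318 highest peaks of the other library, so they repeat counts given above. The count for Domino and Tip60 complex genes fell from 14 to 9 with the 3159 highest optimal peaks, a setting built with fewer peaks. Motif counts at the 9 highest summits are small and moved with the settings. The full DRE was at 1 within 200 bp. Motif 6 was at 0 within 50 bp, and so was the Sry-delta consensus. With at most 1 mismatch the consensus was at 0 of the 9, beside 1.33% of all optimal summits, and with at most 3 it was at 3, beside 26.4%. The other 62 recomputed counts stayed within 1.5 times the main count. Of the 8 neighbouring pairs in the order of the 9 genes, 5 were separated beyond the scaled median absolute deviation and 3 beyond the standard deviation, an alternative chosen after seeing the data. Ranks also moved: by replicate 4 alone His3.3A had 2604 (2205 in the optimal set), Hira 1032 (843) and BigH1 8905 (6105). By replicate 3 alone BigH1 had rank 4815. No paired analysis was possible because there is a single group. Depth is unknown, so the precision of a single signal is known only from the spread of 2 libraries.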
